A study of Mus musculus with 6 samples.

Results

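The 10 genes described here encode the 6 subunits of the replicative DNA helicase (Mcm2, Mcm3, Mcm4, Mcm5, Mcm6 and Mcm7) and 4 proteins often used to mark dividing cells (Pcna, Top2a, Mki67 and Ccnd1). They were taken by symbol from a table of 26835 genes, in which each of the 10 symbols stood in a single entry. The messenger RNA of mouse hearts had been sequenced in 6 libraries, 2 in each of 3 groups. All mice were C57BL/6, of the genotype given as "wide type", 7 to 8 weeks old and about 20 g in weight. Control mice were injected intraperitoneally with 10% DMSO. CFZ mice were injected intraperitoneally with carfilzomib, a proteasome inhibitor given in multiple myeloma, at 8 mg/kg. CFZ_EA mice received the same carfilzomib dose together with electroacupuncture, a current passed through needles, at the PC6 acupoint. Electroacupuncture without carfilzomib is not analysed here, and the labels give the same days (0, 2, 4 and 6) for every library.

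The MCM proteins form a ring that is loaded onto DNA before S phase and unwinds it once replication starts, so a cell that copies its DNA needs all of them. Their genes, like Pcna, are classic targets of E2F transcription factors, whereas Top2a and Mki67 are typical late genes, transcribed mostly in G2 phase and mitosis through elements known as CHR and CCAAT boxes. Adult heart muscle cells rarely divide, and these transcripts are known there mainly from its other, renewing cell types.

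The 250 bases before the start site are shown for 4 of the genes, because these carry the sequence elements named above and their levels set the extremes of the results below: Mcm6 and Mcm5 among the helicase genes, and Top2a and Mki67 among the late genes. Capitals mark every match to an E2F spelling (TTTGGCGC, TTTCCCGC, TTTGCCGC or TTTCGCGC), a CHR spelling (TTTGAA or TTCGAA) or CCAAT, searched on both strands. The sequences are from RefSeq, build GRCm38.p6, and run 5′ to 3′ on the strand of the gene. They lie at chr1:128359706-128359955 (minus strand), chr8:75109259-75109508 (plus strand), chr11:99024190-99024439 (minus strand) and chr7:135716380-135716629 (minus strand) respectively. The RefSeq start site is the same as the start of the gene model in the table for Top2a, and lies 41 bases upstream of it for Mcm6, 60 for Mcm5 and 18 for Mki67.
Mcm6: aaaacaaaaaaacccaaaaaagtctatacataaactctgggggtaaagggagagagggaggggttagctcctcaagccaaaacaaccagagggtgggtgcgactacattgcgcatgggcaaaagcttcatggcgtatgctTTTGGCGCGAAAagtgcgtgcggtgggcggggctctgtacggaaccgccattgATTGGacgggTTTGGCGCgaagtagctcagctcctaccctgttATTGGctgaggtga
Mcm5: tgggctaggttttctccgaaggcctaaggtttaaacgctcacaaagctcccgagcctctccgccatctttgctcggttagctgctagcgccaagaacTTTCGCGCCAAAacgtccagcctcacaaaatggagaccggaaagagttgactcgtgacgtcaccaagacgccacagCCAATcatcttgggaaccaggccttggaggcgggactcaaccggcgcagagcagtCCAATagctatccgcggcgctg
Top2a: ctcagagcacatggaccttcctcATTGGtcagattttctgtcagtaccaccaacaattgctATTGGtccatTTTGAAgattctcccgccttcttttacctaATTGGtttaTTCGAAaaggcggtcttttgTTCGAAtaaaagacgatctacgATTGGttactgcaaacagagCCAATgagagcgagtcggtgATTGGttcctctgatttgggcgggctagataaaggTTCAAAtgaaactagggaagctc
Mki67: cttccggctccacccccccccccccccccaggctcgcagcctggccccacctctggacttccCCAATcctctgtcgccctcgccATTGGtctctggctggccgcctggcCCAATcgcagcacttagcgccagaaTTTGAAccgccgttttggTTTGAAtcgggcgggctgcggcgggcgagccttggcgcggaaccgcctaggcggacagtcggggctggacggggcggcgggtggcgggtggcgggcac
In Mcm6 a pair of overlapping E2F matches on opposite strands spans positions -110 to -99 from the start site, with another from -47 to -40, and in Mcm5 such a pair spans -153 to -142. Top2a holds no E2F match but 4 CHR matches and 6 CCAAT boxes, and Mki67 holds no E2F match but 2 CHR matches and 3 CCAAT boxes. RefSeq starts were matched for 8 of the 10 genes, not for Mcm4 and Ccnd1. Of these 8, 3 held an E2F match (Mcm5, Mcm6 and Mcm7), against 1.86% of 32851 mouse promoters of the same length. A CHR match was found in 4 (Mcm2, Mcm7, Mki67 and Top2a), against 17.1% of promoters, and CCAAT in all 8, against 33.8%. A gene was counted if any of its promoters matched, whereas the percentages are of promoters. Mcm7 has RefSeq start sites at 138171883 and 138171266, and only the promoter of the first holds its E2F and CHR matches. These are matches of letters only, and binding was not measured.

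Estimated counts totalled 50013990 to 75742448 per library. Control replicate 2 stood apart from the other 5 libraries: on the first principal component, which held 31.7% of the variance, it scored 91.5 while the others lay between -39.2 and -1.10. Results that rest on it are therefore given with and without it. Of the 9 marker lists for cell types that a heart sample could hold, the cardiomyocyte list was high in all libraries (18056 to 21346 summed FPKM, 7 of 7 genes detected). FPKM are fragments scaled to transcript length and library depth, and can be compared between genes. With 2 libraries a group, an exact test of a single gene cannot go below p = 0.333, so p-values come from edgeR's quasi-likelihood test fitted to 16929 genes with a mean of at least 0.1 FPKM, with Benjamini-Hochberg adjustment. Of the 10 genes, 9 passed that limit; Mki67, at a mean of 0.0803 FPKM, did not, and its fold changes come from the same fit without the limit. Whether replicates are separate mice is not in the labels, so p-values cover only the spread between these libraries, which may be technical.

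By mean level over the 6 libraries the genes formed 3 tiers. Ccnd1 (10.9 FPKM) and Pcna (9.09 FPKM) were the most abundant, with ranges that overlap. The helicase genes followed, from Mcm7 (2.14 FPKM), Mcm3 (2.02 FPKM) and Mcm6 (1.87 FPKM) to Mcm5 (1.55 FPKM), Mcm4 (1.303 FPKM) and Mcm2 (1.22 FPKM), and neighbours in that order overlapped over the libraries. Top2a (0.205 FPKM) and Mki67 (0.0803 FPKM) were lowest and also overlapped each other. The tiers themselves did not overlap: the lowest Pcna value, 8.08 FPKM, lay above the highest helicase value, 3.66 FPKM, and the lowest helicase value, 0.886 FPKM, lay above the highest Top2a value, 0.767 FPKM. Helicase transcripts were scarce: the 6 helicase genes together made up 0.00148% to 0.00332% of all FPKM.

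**Figure D1:**
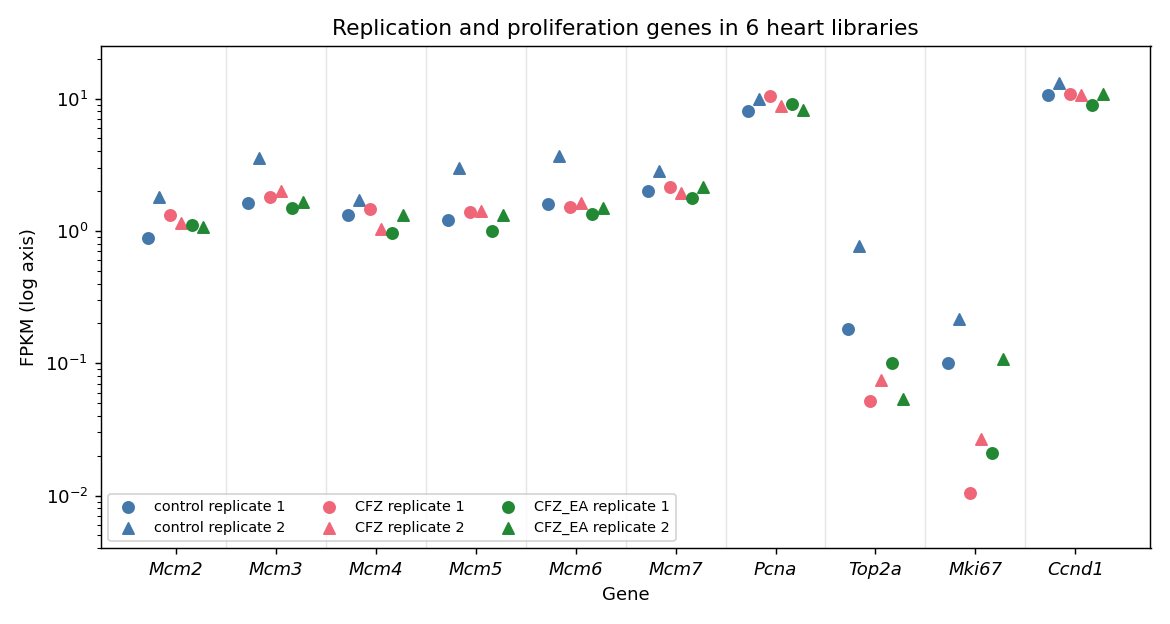
FPKM of each of the 10 genes (log axis) in the 6 libraries, with colour for the group (control, CFZ, CFZ_EA) and a circle or triangle for replicate 1 or 2. Control replicate 2, the blue triangle, is the highest library for every gene but Pcna, and Top2a and Mki67 spread most between libraries.

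The helicase genes were higher in control replicate 2 than in any other library, and close to one another in the remaining 5. Values below are given as replicate 1 and then replicate 2 of each group. Mcm6, a core subunit of the ring (chromosome 1, 128331590 to 128359664, minus strand; ENSMUSG00000026355), measured 1.60 and 3.66 FPKM in control, 1.504 and 1.63 in CFZ, and 1.34 and 1.498 in CFZ_EA, from 468, 939, 501, 531, 450 and 583 estimated counts in that order. Control replicate 2 was 2.29 times control replicate 1, whereas the other 5 libraries differed by at most 1.22 times; control and CFZ overlapped, and both CFZ_EA libraries lay below both control libraries.

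Mcm5, which with Mcm2 forms the gate through which DNA enters the ring (chromosome 8, 75109569 to 75128439, plus strand; ENSMUSG00000005410), measured 1.22 and 2.97 FPKM in control, 1.38 and 1.41 in CFZ, and 1.005 and 1.32 in CFZ_EA, from 307, 654, 393, 393, 289 and 438 counts. The ratio between the control libraries, 2.44, was the largest among the helicase genes, and both treated groups overlapped control. Mcm3 (chromosome 1, 20802968 to 20820312, minus strand; ENSMUSG00000041859) measured 1.63 and 3.56 FPKM in control, 1.80 and 2.00 in CFZ, and 1.49 and 1.65 in CFZ_EA, from 385, 736, 482, 524, 403 and 517 counts. Its control ratio was 2.18, control overlapped with each treated group, and CFZ_EA replicate 1 was the lowest library.

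Mcm2, the subunit that also binds histones at the fork (chromosome 6, 88883474 to 88898780, minus strand; ENSMUSG00000002870), measured 0.886 and 1.82 FPKM in control, 1.31 and 1.15 in CFZ, and 1.117 and 1.06 in CFZ_EA, from 389, 697, 652, 557, 558 and 616 counts. The control libraries were thus the lowest and the highest of the 6, at a ratio of 2.05, and the 4 treated libraries lay between them. Mcm4 (chromosome 16, 15623897 to 15637400, minus strand; ENSMUSG00000022673) measured 1.31 and 1.72 FPKM in control, 1.47 and 1.04 in CFZ, and 0.957 and 1.32 in CFZ_EA, from 295, 340, 376, 259, 246 and 395 counts. All 3 groups overlapped, with a control ratio of 1.31 that was smaller than the 1.54 between the highest and lowest of the other 5 libraries. Mcm7, which with Mcm4 and Mcm6 makes up the catalytic core (chromosome 5, 138164583 to 138172422, minus strand; ENSMUSG00000029730), measured 2.01 and 2.86 FPKM in control, 2.14 and 1.93 in CFZ, and 1.77 and 2.15 in CFZ_EA, from 561, 700, 676, 595, 564 and 792 counts. Its control ratio was 1.43 and the groups overlapped. Mcm7 shares 64 bases with Cops6 and 421 bases with Ap4m1 on the opposite strand and hosts Mir25 and Mir93, so its reads may be split with these genes, since the sources used here do not state whether counting used strand.

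Summed over the 6 subunits, helicase transcripts came to 8.65 and 16.6 FPKM in control, 9.60 and 9.15 in CFZ, and 7.68 and 9.01 in CFZ_EA. Control replicate 1 lay within the range of the treated libraries and control replicate 2 above all of them. The order of the subunits shifted with it: Mcm7 was the most abundant subunit in 4 libraries and Mcm3 in CFZ replicate 2, while in control replicate 2 Mcm6 was first and Mcm7 the fourth. Since these are bulk samples, fewer cells of a type and less RNA per cell cannot be told apart.

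Pcna and Ccnd1, the abundant pair, varied little. Pcna, the sliding clamp that holds DNA polymerases on their template and also serves DNA repair (chromosome 2, 132249162 to 132253314, minus strand; ENSMUSG00000027342), measured 8.08 and 9.89 FPKM in control, 10.5 and 8.76 in CFZ, and 9.13 and 8.14 in CFZ_EA, from 1215, 1306, 1796, 1462, 1571 and 1623 counts. It was the only one of the 10 whose highest library was not control replicate 2; CFZ replicate 1 was highest and all groups overlapped. Ccnd1, the cyclin that drives CDK4 and CDK6 in G1 and is also present in cells that do not divide (chromosome 7, 144929931 to 144939925, minus strand; ENSMUSG00000070348), measured 10.7 and 13.2 FPKM in control, 10.7 and 10.7 in CFZ, and 8.91 and 10.9 in CFZ_EA, from 3154, 3421, 3595, 3510, 3003 and 4268 counts. Control replicate 2 was 1.24 times control replicate 1, CFZ_EA replicate 1 was lowest, and the groups overlapped. Ccnd1 shares 818 bases with LTO1 on the opposite strand.

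Top2a, the topoisomerase that untangles sister chromosomes before they part (chromosome 11, 98992943 to 99024189, minus strand; ENSMUSG00000020914), measured 0.182 and 0.767 FPKM in control, 0.0521 and 0.0747 in CFZ, and 0.101 and 0.0540 in CFZ_EA. These rest on 104, 382, 34, 47, 66 and 42 estimated counts. Both control libraries lay above all 4 treated libraries, and control replicate 2 was 4.22 times control replicate 1. Mki67, which coats mitotic chromosomes and is the gene of the Ki-67 stain (chromosome 7, 135689784 to 135716361, minus strand; ENSMUSG00000031004), measured 0.101 and 0.215 FPKM in control, 0.0105 and 0.0266 in CFZ, and 0.0209 and 0.108 in CFZ_EA. These rest on 64, 119, 8, 19, 16 and 90 counts. Both CFZ libraries lay below both control libraries, whereas the CFZ_EA libraries differed from each other by 5.15 times, the second of them lying between the control libraries. The late genes therefore did not share 1 pattern in CFZ_EA: Top2a was the higher of the pair in 5 libraries, but in CFZ_EA replicate 2 Mki67 was higher.

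**Figure D2:**
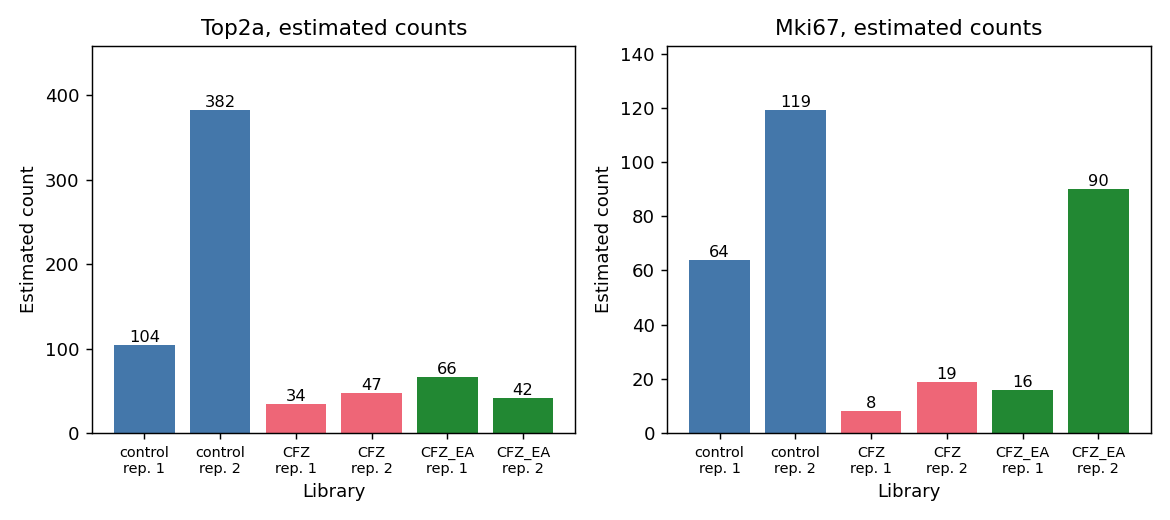
Estimated counts of Top2a (left) and Mki67 (right) in each of the 6 libraries (bars from 0, no error bar since each bar is 1 library). Top2a has 104 and 382 counts in control and 34 to 66 in the treated libraries, while Mki67 has 90 counts in CFZ_EA replicate 2, between the 64 and 119 of the control libraries.

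Control replicate 2 was the highest of the 6 libraries for 8 of the 9 genes tested, all but Pcna, against 39.2% of all genes tested; in CPM (counts scaled to library size, here with TMM factors) it was again 8 of 9, against 26.8%. It exceeded control replicate 1 by over 1.5 times for 5 of 9 (Mcm2, Mcm3, Mcm5, Mcm6 and Top2a), against 23.0% of all genes. It exceeded the highest of the other 5 libraries by over 1.5 times for 4 of 9 (Mcm3, Mcm5, Mcm6 and Top2a), against 10.9%. The median ratio of control replicate 2 to control replicate 1 was 2.05 over the 9 genes and 1.11 over all genes.

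Comparing CFZ with control asks how carfilzomib alters these transcripts in the heart. None of the 9 tested genes passed an adjusted p of 0.05, where 0.0118% of all genes did, by edgeR. DESeq2 called 1 of the 9, Top2a, against 1.13% of all genes. At an unadjusted p under 0.05 by edgeR 1 of 9, again Top2a, was lower in CFZ, against 6.07% of all genes, and 0 of 9 were higher, against 1.88%. For Top2a the group means were 0.474 ± 0.414 FPKM over the control libraries and 0.0634 ± 0.0160 FPKM over those of CFZ (± SD, n = 2). Its log2 fold change was -2.75 ± 0.72 (SE; 95% interval -4.50 to -0.99), with an unadjusted p of 0.00857 and an adjusted p of 0.614 by edgeR's quasi-likelihood test, and an adjusted p of 0.0197 by DESeq2. Without control replicate 2 the estimate was -1.51 (interval -2.94 to -0.07, adjusted p = 0.947 by edgeR), and without control replicate 1 it was -3.41 (interval -4.68 to -2.13, adjusted p = 0.0535 by edgeR).

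For Mki67 the group means were 0.158 ± 0.0804 FPKM over the control libraries and 0.0185 ± 0.0113 FPKM over those of CFZ (± SD, n = 2). Its log2 fold change was -2.89 ± 0.86 (SE; interval -4.91 to -0.86, adjusted p = 0.708 by edgeR). Without control replicate 2 it was -2.35, with an interval that includes 0. Top2a and Mki67 were the only ones of the 10 whose CFZ libraries both lay below both control libraries; among the 9 tested this is 1 of 9, against 24.8% of all genes. For the helicase genes the estimates ran from -0.62 ± 0.34 for Mcm6 and -0.46 ± 0.38 for Mcm5, through -0.32 ± 0.33 for Mcm3, -0.18 ± 0.28 for Mcm4 and -0.16 ± 0.20 for Mcm7, to -0.02 ± 0.29 for Mcm2 (log2 fold change ± SE). All 6 of their intervals include 0, and those of Mcm6 (-1.45 to 0.22), Mcm5 (-1.39 to 0.47) and Mcm3 (-1.13 to 0.48) reach beyond a 2-fold lower level. Pcna (0.20 ± 0.14, interval -0.15 to 0.54) and Ccnd1 (-0.05 ± 0.15, interval -0.41 to 0.30) had the narrowest intervals.

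The helicase estimates moved with the control library used. Without control replicate 2 they were 0.47 for Mcm2, 0.23 for Mcm3, 0.20 for Mcm5, 0.02 for Mcm7, -0.02 for Mcm6 and -0.06 for Mcm4, so the sign turned for 4 of 6, and that of Ccnd1 turned too (0.01). Without control replicate 1 all 6 were below 0, from -1.04 for Mcm6 to -0.29 for Mcm4. Over the 9 tested genes 8 estimates were below 0, against 51.8% of all genes, with a median of -0.18 against -0.02; without control replicate 2, 3 of 9 were below 0 with a median of 0.02. Scaled by library totals only, the median of all genes was -0.11 and that of the 9 genes -0.28, which is -0.16 relative to all genes, as it is under TMM scaling.

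**Figure D3:**
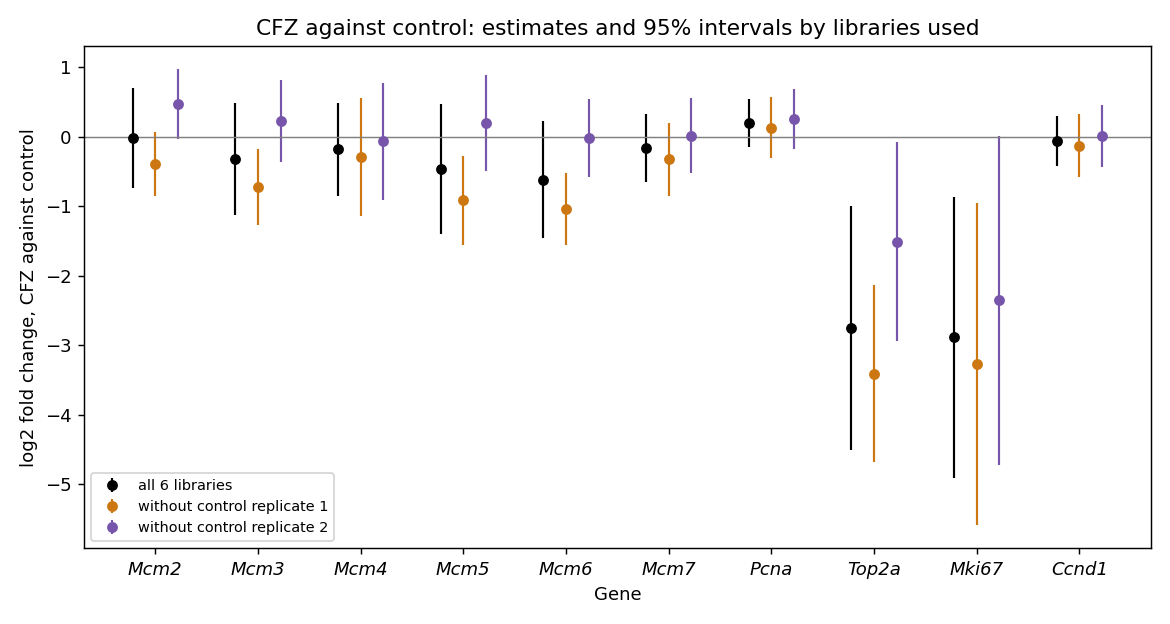
Log2 fold change of CFZ against control for each gene with its 95% interval, from all 6 libraries (black), without control replicate 1 (orange) and without control replicate 2 (purple); Mki67 is from the fit without a limit on low values. The estimates of Top2a and Mki67 lie below 0 under all 3 choices, but the Mki67 interval without control replicate 2 includes 0. The helicase genes move from below 0 to near or above it when control replicate 2 is left out.

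Comparing CFZ_EA with CFZ asks what electroacupuncture adds in mice given carfilzomib, and it uses no control library for its means. None of the 9 tested genes passed an adjusted p of 0.05, by edgeR, against 0.0118% of all genes, or by DESeq2, against 0.473%. None reached an unadjusted p of 0.05 by edgeR, where 1.11% of all genes did so in the lower and 2.51% in the higher direction. Mcm2, Mcm3, Mcm5 and Mcm6 had both CFZ_EA libraries below both CFZ libraries in FPKM, 4 of 9, against 15.8% of all genes. Their log2 fold changes were small, with intervals that include 0: -0.18 ± 0.29 for Mcm2, -0.28 ± 0.33 for Mcm3, -0.27 ± 0.38 for Mcm5 and -0.15 ± 0.34 for Mcm6 (SE). These SE come from the model of all 6 libraries, so the spread of control replicate 2 enters them. Without control replicate 2 the estimates were -0.18, -0.28, -0.27 and -0.15 in that order. Their SE were then smaller, and their intervals still included 0. In TMM-scaled CPM the Mcm6 groups overlapped, at 7.62 and 8.86 in CFZ and 6.96 and 7.89 in CFZ_EA, while those of Mcm2, Mcm3 and Mcm5 did not. The Pcna groups did not overlap in CPM either, at 27.3 and 24.4 in CFZ and 24.3 and 22.0 in CFZ_EA. The share of all genes was not counted in CPM for this comparison. Mcm4 (-0.13 ± 0.28), Mcm7 (-0.06 ± 0.20), Pcna (-0.16 ± 0.14) and Ccnd1 (-0.12 ± 0.15) overlapped in FPKM. In all, 8 of 9 estimates were below 0, against 49.8% of all genes, with a median of -0.15. Without CFZ_EA replicate 1, 6 of 9 were below 0 with a median of -0.0804; Mcm4, Mcm7 and Ccnd1 were then above 0 and Top2a below it.

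Top2a, at 0.29 ± 0.70 (SE; interval -1.42 to 1.99), was the exception among the 9, and its groups overlapped. The Mki67 mean was 0.0642 ± 0.0613 FPKM over the CFZ_EA libraries (± SD, n = 2), against the 0.0185 FPKM of CFZ given above. The log2 fold change was 1.74 ± 0.85 (SE; interval -0.24 to 3.71, adjusted p = 1.0 by edgeR). That estimate rests on CFZ_EA replicate 2: it was 0.18 without this library and 2.46 without CFZ_EA replicate 1. CFZ_EA replicate 2 was also the library with the highest summed atrial markers, 5635 FPKM against 201 to 2807 in the other 5, and its epicardial markers came to 10.9 FPKM against 4.34 in CFZ_EA replicate 1. Erythroid (3470 against 2466 FPKM), macrophage and leukocyte (280 against 239), fibroblast (187 against 176) and endothelial markers (231 against 227) were also higher in CFZ_EA replicate 2 than in CFZ_EA replicate 1. Cardiomyocyte, neutrophil and lymphocyte markers were lower. The part of any of these lists in the Mki67 value was not tested.

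The comparison of CFZ_EA with control shares its libraries with the other comparisons. None of the 9 tested genes passed an adjusted p of 0.05, as was the case for 0.0% of all genes, by edgeR, and DESeq2 called none of the 9, against 0.384% of all genes. By edgeR 1 of 9, Top2a, had an unadjusted p under 0.05 in the lower direction, against 3.51% of all genes, and 0 of 9 in the higher, against 1.56%. Top2a had a log2 fold change of -2.46 ± 0.71 (SE; interval -4.19 to -0.73, adjusted p = 0.863 by edgeR), and -1.22 without control replicate 2. Mki67 was at -1.15 ± 0.79 and overlapped. Its estimate was -2.71 without CFZ_EA replicate 2, -0.43 without CFZ_EA replicate 1 and -0.62 without control replicate 2. Both CFZ_EA libraries lay below both control libraries for Mcm6 and Top2a, 2 of 9, against 22.3% of all genes. Mcm6 was at -0.77 ± 0.34, Mcm5 at -0.73 ± 0.38 and Mcm3 at -0.60 ± 0.33, and without control replicate 2 these were -0.16, -0.07 and -0.05. The remaining 5 ran from -0.31 ± 0.28 for Mcm4 to 0.04 ± 0.14 for Pcna, and the median of the 9 was -0.31 (-0.07 without control replicate 2).

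Other genes of the same processes were read from 6 lists, and none of their tested genes was called by edgeR in any of the 3 comparisons. The mitosis list came closest to Top2a and Mki67. Of its 32 genes 21 were tested, and 11 were too low, among them Bub1, Kif11 and Hmmr. Its summed level was 13.0 and 34.8 FPKM in control, 10.0 and 10.8 in CFZ, and 9.63 and 13.1 in CFZ_EA. Control replicate 2 was far above the rest, and control replicate 1 lay above all treated libraries but CFZ_EA replicate 2. A large part of the lower sums was 1 gene, Cenpa, at 5.61 and 6.13 FPKM in control, 5.01 and 4.89 in CFZ, and 5.96 and 6.69 in CFZ_EA. For CFZ against control 20 of 21 estimates were below 0 with a median of -1.46, and 7 of 21 had an unadjusted p under 0.05 in the lower direction, against 6.07% of all genes. Without control replicate 2 the median was -0.40, and 17 of 21 estimates were below 0, against 50.9% of all genes. Birc5, a subunit of the complex that corrects chromosome attachment, measured 0.392 and 1.34 FPKM in control, 0.187 and 0.174 in CFZ, and 0.135 and 0.184 in CFZ_EA. Both control libraries were above all treated ones, and the CFZ against control estimate was -2.07 ± 0.59 (adjusted p = 0.614 by edgeR), or -1.08 without control replicate 2. Aurkb, the kinase of that complex, was at 0.236 and 1.15 FPKM in control and 0.0715 and 0.159 in CFZ (-2.41 ± 0.85, or -1.01 without control replicate 2).

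Genes that load or accompany the helicase showed less. In the list of origin licensing and other MCM genes 12 of 15 were tested, with 6 estimates below 0 and 6 above for CFZ against control. Their median was 0.05. Cdc6, which helps load the MCM ring, measured 0.504 FPKM in control replicate 2 and 0.0685 to 0.113 FPKM in the other 5 libraries (145 counts against 29 to 39). Cdt1, the partner of Cdc6 in loading, measured 0.695 and 1.06 FPKM in control, 0.457 and 0.570 in CFZ, and 0.542 and 0.525 in CFZ_EA. Both its control libraries lay above all others, at -0.67 ± 0.33 for CFZ against control and -0.45 without control replicate 2. Of 33 replication fork genes 31 were tested, 17 below 0 and 14 above, with a median of -0.07. Gins2, part of the GINS complex that activates the MCM ring, measured 1.87 and 1.91 FPKM in control, 1.57 and 1.21 in CFZ, and 0.273 and 0.697 in CFZ_EA, from 479, 432, 460, 345, 82 and 237 counts. Here the control libraries were alike and CFZ_EA lay below both other groups, and the CFZ_EA against CFZ estimate was -1.51 ± 0.43 (unadjusted p = 0.0128, adjusted p = 1.0 by edgeR). It was -0.99 without CFZ_EA replicate 1 and -2.33 without CFZ_EA replicate 2.

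Nucleotide supply and chromatin assembly genes resembled the helicase in their split between control libraries. Of 13 listed 11 were tested; their sum was 15.4 and 24.5 FPKM in control and 14.1 to 16.8 in the treated libraries. For CFZ against control 9 of 11 estimates were below 0 with a median of -0.73, which was 0.10 without control replicate 2. Uhrf1, which carries DNA methylation through replication, measured 0.453 and 1.39 FPKM in control and 0.179 and 0.326 in CFZ (-1.71 ± 0.63, adjusted p = 0.614 by edgeR, or -0.82 without control replicate 2). Of 21 genes of G1 and S phase control 20 were tested, 13 below 0 and 7 above, at a median of -0.15. Ccna2, the cyclin of S and G2 phase, measured 0.225 and 1.31 FPKM in control, 0.166 and 0.120 in CFZ, and 0.0662 and 0.177 in CFZ_EA. The CFZ against control estimate was -2.25 ± 0.86, or -0.63 without control replicate 2.

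**Figure D4:**
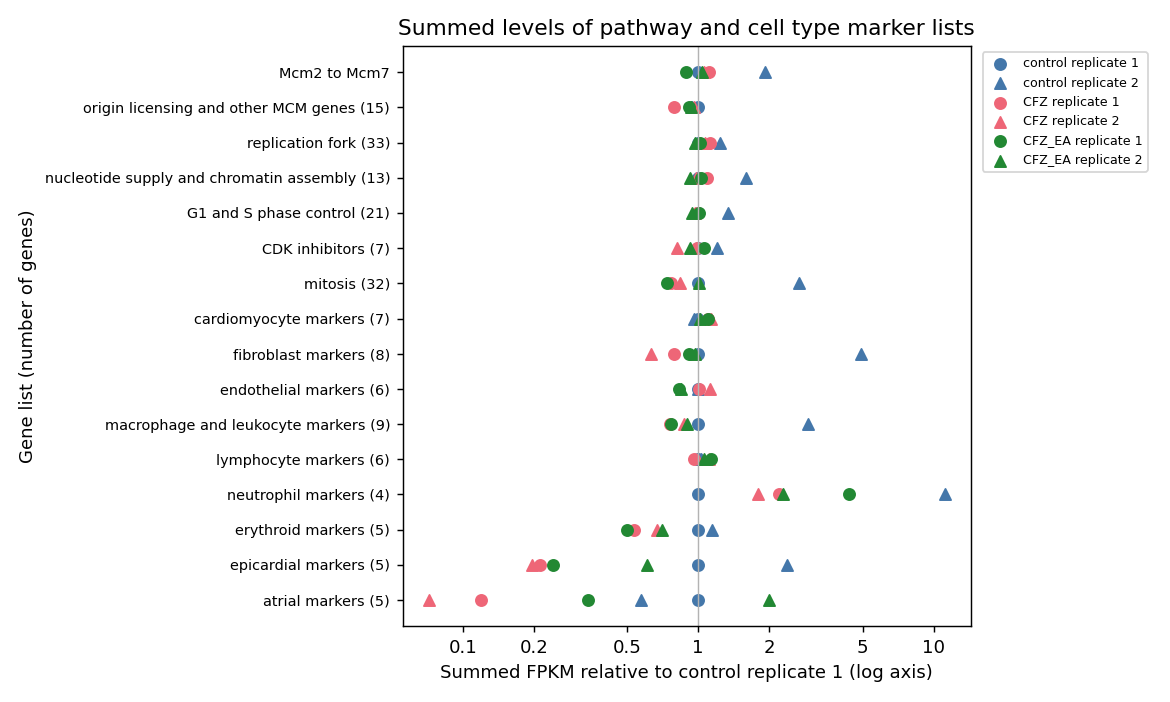
Summed FPKM of the 6 helicase genes, the 6 pathway lists and the 9 cell type marker lists in each library, divided by control replicate 1 (log axis; number of genes in brackets; colours and shapes as groups and replicates). Control replicate 2 lies far to the right for helicase, mitosis, fibroblast, macrophage, neutrophil and epicardial lists and near 1 for cardiomyocyte, endothelial and lymphocyte lists.

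Markers of several cell types were also highest in control replicate 2, the library that was highest for the helicase genes and Top2a. Fibroblast markers summed to 946 FPKM there against 121 to 193 in the other 5 libraries, and 8 of 8 were highest there. Macrophage and leukocyte markers summed to 918 FPKM against 238 to 313 (9 of 9), neutrophil markers to 23.2 against 2.07 to 9.06 (3 of 4), epicardial markers to 42.8 against 3.53 to 18.0 (5 of 5), and erythroid markers to 5666 against 2466 to 4962 (5 of 5). Endothelial markers, at 273 against 227 to 307 FPKM (1 of 6), lymphocyte markers, at 2.47 against 2.31 to 2.74 FPKM (0 of 4 tested), and cardiomyocyte markers (0 of 7) were not set apart in this way, nor were atrial markers (0 of 5). Top2a and Mki67 also differed between control replicate 1 and CFZ. There fibroblast markers stood at 193 against 121 and 153 FPKM, and erythroid markers at 4962 against 2654 and 3316. Epicardial markers stood at 18.0 against 3.53 and 3.84 FPKM, and atrial markers at 2807 against 201 and 334. Macrophage and leukocyte markers stood at 313 against 238 and 272 FPKM. Other lists were higher in both CFZ libraries: neutrophil (2.07 against 3.71 and 4.59 FPKM), cardiomyocyte (18767 against 20660 and 21346) and endothelial (274 against 276 and 307). Lymphocyte markers, at 2.41 FPKM, lay between the CFZ libraries (2.31 and 2.68). None of the markers was at 0 in any library. Their part in the levels of the 10 genes was not tested.

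The genes most like the tested members over the 6 libraries were found by Pearson's r between log2 CPM and the mean standardised level of the 9. They were Nrros (r = 0.996), Ltbr (0.993), Cnn2 (0.991), Cand1 (0.991), S100a16 (0.990) and Ahnak (0.988). The points are the 6 libraries, control replicate 2 among them. Without it r was between 0.951 (Cand1) and 0.978 (Nrros) for these 6 genes. They were picked for the highest r over libraries that include the remaining ones, so the second r is not a separate check. Nrros, a protein of macrophages and microglia, measured 1.898 and 4.42 FPKM in control, 2.34 and 2.07 in CFZ, and 1.53 and 1.84 in CFZ_EA. As with the helicase sum, control replicate 2 was highest and CFZ_EA replicate 1 lowest. Among the members, Mcm5 followed this common level most closely (r = 0.989) and Pcna least (r = 0.117). Each member is itself part of that level, which raises its r, and control replicate 2 is among the points.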

How the data were processed

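Per the labels' protocols, poly(A) RNA of hearts with an integrity number above 7.0 was made into dUTP libraries and sequenced in pairs of 150 bases. Per the submitters' processing notes, cutadapt 1.9, HISAT2 2.0.4, StringTie 1.3.4d and build GRCm38 were used, with no role or order given; the sources used here do not give the annotation, the filters or the use of strand. The deposited table, by its headers, gives FPKM made by the authors for each library. Per the file headers, the authors' count for each library stands beside it and was treated here as an estimated count and rounded. Of the deposited counts from 1 to 20, 42.2% to 43.3% are multiples of 4 (25% by chance), so a count may be less than a read and counting error larger than it looks.

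Gene positions matched GENCODE M21. The main test was edgeR 4.0.16 (R 4.3.3): quasi-likelihood, TMM factors of 0.945 to 1.11, 1 model of the 3 groups over all 6 libraries, 3 residual degrees of freedom, mean FPKM of at least 0.1 (16929 genes), and Benjamini-Hochberg adjusted p under 0.05. Intervals are 95%. The steps were tested on simulated counts. Alternatives were other filters and scaling, DESeq2 1.42.0, limma 3.58.1 on log2(FPKM + 1) and log2(FPKM + 0.1), 2 groups only, counts divided by 4, a replicate block and libraries left out. Named genes were the 10 members, from each of 6 pathway lists the 2 genes with the smallest p for CFZ against control and for CFZ_EA against CFZ, of which the text names some, and the 6 genes most like the members (log2 of CPM + 0.01). Members, lists and alternatives were chosen with earlier results of these data known. Promoter sequences came from a RefSeq table for GRCm38.p6.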

Additional observations from a re-analysis of the deposited data

How the results depend on the processing

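Depth limits Mki67 most, with 8 to 119 estimated counts a library, and Top2a next, with 34 to 382. For CFZ against control 2 genes were called in all; the count was 191 with DESeq2 (1 of the 10 genes here, Top2a), 0 with 2 groups only, 1 with counts divided by 4, 4 with no filter, 4 without control replicate 2 and CFZ_EA replicate 2, and, leaving out single libraries, 0 to 240 (240 without control replicate 1). For CFZ_EA against CFZ the count of 2 became 80 with DESeq2, 1 with counts divided by 4, and 0 to 3 with 1 library left out. For CFZ_EA against control the count of 0 (858 genes at an unadjusted p under 0.05) became 65 with DESeq2 and 0 to 120 with 1 library left out. No member was called under any other alternative.

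Signs turned as follows, and the cause was not tested. With control replicate 2 and CFZ_EA replicate 2 both left out, CFZ against control gave 0.48 for Mcm2, 0.24 for Mcm3, 0.21 for Mcm5, 0.0299 for Mcm7 and 0.0253 for Ccnd1, and CFZ_EA against control gave 0.33 for Mcm2. For Pcna, CFZ_EA against control gave -0.0598 with library totals only, -0.0472 with limma on log2(FPKM + 1) and -0.0516 on log2(FPKM + 0.1). With 1 library left out, CFZ against control ranged from -0.39 to 0.47 for Mcm2, -0.73 to 0.23 for Mcm3, -0.39 to 0.00923 for Mcm4, -0.92 to 0.20 for Mcm5, -0.32 to 0.0175 for Mcm7 and -0.13 to 0.0128 for Ccnd1. CFZ_EA against CFZ ranged from -0.40 to 0.0902 for Mcm4, -0.21 to 0.0849 for Mcm7, -0.19 to 0.65 for Top2a and -0.29 to 0.0286 for Ccnd1. CFZ_EA against control ranged from -0.57 to 0.30 for Mcm2 and -0.0381 to 0.11 for Pcna.

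Same-numbered replicates did not deviate together (r of -0.05, -0.04 and 0.05), and the main model does not use the replicate number. These r values do not settle whether same-numbered libraries were handled together. With a replicate block the counts of calls were the same (2, 2 and 0), and the sign of Mcm2 turned for CFZ against control (0.0184). Of the estimates for the 10 genes, 165 of 180 kept sign and side with 1 library left out, and 310 of 321 under the other alternatives.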

Other observations

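Some genes of the same lists, such as Cdkn1a, Cdkn2b and Cenpa, were lowest in a CFZ library. The helicase genes other than Mcm2 were lowest in CFZ_EA replicate 1. Cdkn1a, the CDK inhibitor p21, measured 7.24 and 15.9 FPKM in control, 5.31 and 6.30 in CFZ, and 11.2 and 7.84 in CFZ_EA. Both CFZ libraries lay below all the others, and the log2 fold changes were -0.87 ± 0.35 in CFZ against control (adjusted p = 0.628 by edgeR; -0.31 without control replicate 2) and 0.70 ± 0.35 in CFZ_EA against CFZ (adjusted p = 1.0 by edgeR). Cdkn2b, another CDK inhibitor, had 27 and 60 counts in control, 17 and 23 in CFZ, and 38 and 34 in CFZ_EA, so CFZ was again lowest in both libraries.

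Cenpa, the histone variant that marks centromeres, was far more abundant than the other mitosis genes named here, at 5.61 and 6.13 FPKM in control, 5.01 and 4.89 in CFZ, and 5.96 and 6.69 in CFZ_EA. CFZ lay below both other groups, and the CFZ_EA against CFZ estimate was 0.35 ± 0.13 in log2 (adjusted p = 1.0 by edgeR). Cdk1, the kinase that drives entry into mitosis, had 110 and 386 counts in control, 80 and 76 in CFZ, and 15 and 59 in CFZ_EA. Its lowest library was CFZ_EA replicate 1, as for the helicase genes other than Mcm2. None of these 4 genes passed the adjusted threshold in the comparisons given.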
